A study of Mus musculus with 18 samples.

Results

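The response of DFMO-treated MIN6 cells to proinflammatory cytokines was measured by RNA sequencing. The comparison set 3 libraries of cells given DFMO (5 mM) together with a mix of interferon gamma (IFN-γ), tumour necrosis factor alpha (TNF-α) and interleukin 1 beta (IL-1β) against 3 libraries of cells given DFMO (5 mM) alone, both for 24 h. These 6 libraries, taken by their treatment labels, are part of 18 in the series. A further 6 libraries, vehicle with the same cytokine mix and vehicle alone for 24 h, entered the same fit and served to test whether the cytokine effect differed with DFMO. The remaining 6 libraries, of cells given DENSpm (10 µM), were not used here. MIN6 is a transformed mouse beta cell line, so no other islet or immune cell type belongs to the design. The labels call the 3 libraries of each group biological replicates of this line, so the tests weigh differences against the spread of cultures or samples of this single line.

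Proinflammatory cytokines act on beta cells through a few well-known routes. IFN-γ signals through JAK kinases to interferon response genes and to the genes that present peptides on MHC class I, while TNF-α and IL-1β activate NF-kB and, with it, chemokines, nitric oxide synthesis and stress pathways. DFMO inhibits ornithine decarboxylase, the enzyme that makes putrescine, the first polyamine. The comparison thus asks what the cytokine mix does to the RNA of beta cells treated with an inhibitor of polyamine synthesis.

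The libraries were small, with 403377 to 488512 counts in DFMO + cytokines (mean 453425 ± 44495.5, SD, n = 3) and 436327 to 507273 counts in DFMO (470510 ± 35543.3). Reads collected mainly in rows with a second gene on the other strand. In the annotation of the same assembly (GRCm38), 5853 of 24557 rows had exons that overlap exons on the other strand, and these held 84.2% to 84.7% of the counts in DFMO + cytokines libraries and 81.4% to 82.3% in DFMO libraries. The rows of 85 ribosomal protein genes, which every cell expresses strongly, took 0.0977% to 0.120% of counts in DFMO + cytokines libraries and 0.126% to 0.138% in DFMO libraries. Rows are therefore named by their symbol with the gene whose exons lie opposite, and a row's values are not read as those of the gene whose symbol it carries. Where several genes lie opposite a row, their counts cannot be told apart. Levels are in CPM, counts relative to the library total, without division by length, so they are compared between groups and not between genes.

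Of 3302 rows tested, 433 (13.1%) changed with cytokines in DFMO-treated cells at an adjusted p under 0.05 in edgeR's quasi-likelihood test. Of these, 232 rows (7.03%) were higher and 201 (6.09%) were lower in DFMO + cytokines, and 237 changed at least 2-fold, 141 upward and 96 downward. The lower count fell to 132 without DFMO replicate 2. Large rises stood in rows opposite interferon response and antigen presentation genes, and also in rows outside the gene lists. The falls were smaller, and lay in rows opposite Gm49394 and Igf2, opposite the prohormone convertase gene Pcsk2 and opposite the cyclin genes Ccne2 and Ccna2. Over all rows tested the median log2 fold change was -0.038. The groups did not overlap in 455 rows (13.8%) that were higher with cytokines and in 489 (14.8%) that were lower. The rows named for the largest changes were picked from rows without overlap, so for them it adds no support. The leading principal component of the 12 libraries held 32.5% of the variance and separated libraries with cytokines from those without, and the second held 18.2% and separated DFMO from vehicle. Of the 232 rising rows, 80 passed the filter on low counts only through the libraries with cytokines, and 26 held no count in DFMO.

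Rows opposite interferon response genes rose furthest. The Mir6381 row (chr3:142623860-142623946, minus strand) shares 24 bases with an exon of Gbp2, an interferon-inducible GTPase of the guanylate-binding protein family. It held 47673, 47711 and 46544 CPM in DFMO + cytokines libraries, against 0, 0 and 0 CPM in DFMO libraries. The 3 libraries with cytokines were alike, and no DFMO library held a read of this row. With 60983 counts over 3 libraries against a floor of 3 counts, the level was at least 21692-fold higher in DFMO + cytokines (adjusted p = 9.54e-46, edgeR). The Gbp2 row itself, which faces Mir6381 over the same 24 bases, held 106, 218 and 263 CPM with cytokines, against 0, 0 and 0 CPM in DFMO alone, at least 92.5-fold higher (adjusted p = 8.1e-13). Since the row is 87 bases long and no hairpin sequence was used here, the mature miRNA is shown only to mark where it lies, at chr3:142623925-142623945, minus strand, with no base inside a Gbp2 exon. Its seed, bases 2 to 8, is in capitals.
mmu-miR-6381: cAGGAUGCuggugacaugagu

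The 3110062M04Rik row (chr6:34871771-34878060, minus strand), a protein-coding gene that the annotation calls Cyren, overlaps 2168 exon bases of Tmem140, which codes for a membrane protein. It held 13401, 14284 and 13880 CPM in DFMO + cytokines libraries, against 33.1, 24.2 and 8.02 CPM in DFMO libraries. Every library with cytokines stood far above every DFMO library, a 636-fold difference of means (log2 fold change 9.34 ± 0.18, adjusted p = 8.06e-39). The Numa1 row (chr7:101934111-102014964, plus strand) overlaps 80 exon bases of Il18bp, the secreted inhibitor of interleukin 18, and held 2900, 2723 and 2885 CPM in DFMO + cytokines libraries, against 137, 145 and 160.3 CPM in DFMO libraries. The groups were far apart and each was tight (log2 fold change 4.26 ± 0.13, adjusted p = 2.76e-30). The row of Il18bp itself held 5 counts with cytokines and 3 without, too few to be tested.

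Parp9 and Dtx3l face each other head to head and code for partner proteins that modify histones and other targets after interferon. The Parp9 row (opposite Dtx3l, 458 bases) held 2091, 2094 and 2186 CPM in DFMO + cytokines libraries, against 147, 108 and 122 CPM in DFMO libraries (log2 fold change 4.08 ± 0.14, adjusted p = 6.38e-29). The Dtx3l row (opposite Parp9) held 228, 224 and 212 CPM in DFMO + cytokines libraries, against 42.6, 28.6 and 22 CPM in DFMO libraries (log2 fold change 2.84 ± 0.32, adjusted p = 6.41e-10). Both directions of this pair rose, with no overlap between groups. The Mb row, opposite Gm49540 over 412 bases and the apolipoprotein L gene Apol6 over 64, held 435, 314 and 222 CPM in DFMO + cytokines libraries, against 0, 6.6 and 0 CPM in DFMO libraries. That is 145-fold, with an interval of 49.3 to 707 from counting error alone, since only 3 counts stood in DFMO libraries (adjusted p = 3.74e-16).

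By the gene opposite, 8 of 10 tested rows of the interferon list rose and none fell, against 7.03% of all rows tested. The rows not called were Tnpo3 (opposite Irf5, log2 fold change -1.19) and Raver2 (opposite Gm22100 and Jak1, log2 fold change 2.64). The median log2 fold change of the 10 was 4.94, or 4.17 with rows at 0 set to their bound of 3 counts, against -0.038 over all rows. Of these 10 rows, 5 passed the filter only through libraries with cytokines. By the row's own symbol 17 of 24 rose and none fell, 15 of the 24 passing only through libraries with cytokines. Among these, the Ifi27l2a row, an interferon-induced gene with nothing annotated opposite, held 2746, 2568 and 2866 CPM in DFMO + cytokines libraries, against 667, 691 and 695 CPM in DFMO libraries, a 3.98-fold rise (log2 fold change 1.99 ± 0.11, adjusted p = 8.79e-21). The Gbp7 row held 82.2, 150.4 and 218 CPM with cytokines, against 4.73, 2.2 and 10 CPM in DFMO alone (log2 fold change 4.65 ± 0.49, adjusted p = 1.75e-10), and the Sp110 row, of a nuclear body protein (opposite G530012D18Rik), held 178, 150.4 and 128 CPM with cytokines, against 4.73, 0 and 18 CPM in DFMO alone (log2 fold change 4.22 ± 0.55, adjusted p = 3.51e-08). All 3 were higher in every library with cytokines than in any DFMO library. The plot of rising rows by library shows the main ones.

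**Figure D1:**
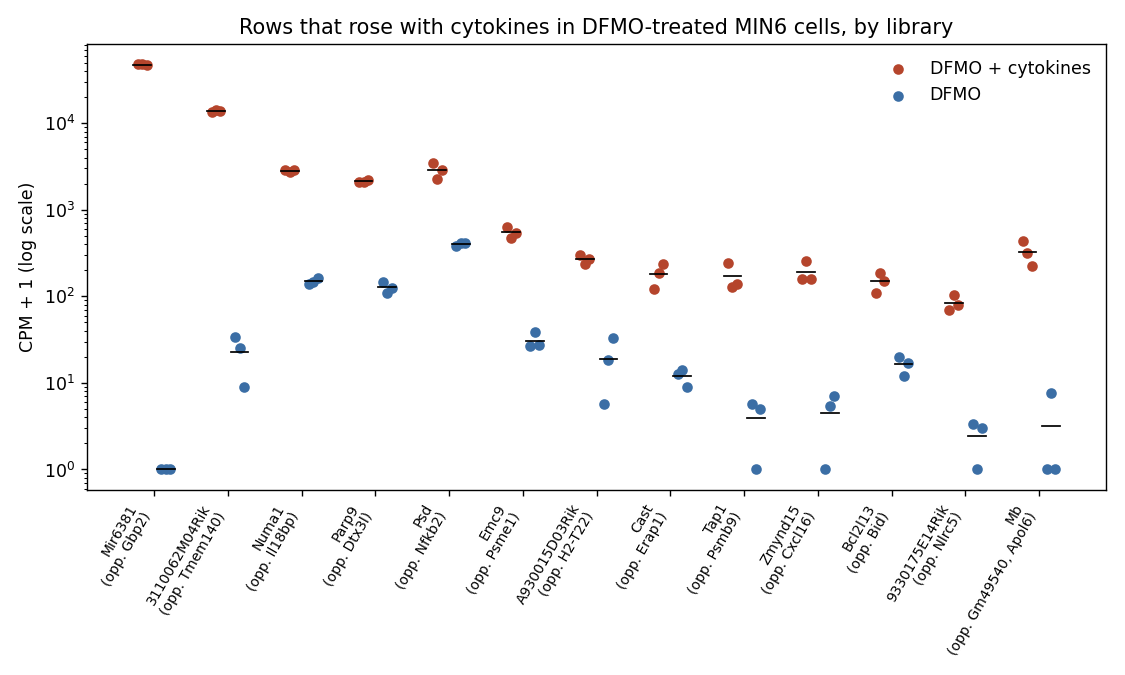
CPM plus 1 on a log axis for 13 rows, each named with the gene opposite (opp.), with 1 point per library (DFMO + cytokines left, DFMO right) and a bar at the mean of 3 libraries. In all 13 rows the DFMO + cytokines libraries sit above the DFMO libraries, and the Mir6381 row stands at 0 CPM in all 3 DFMO libraries.

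Rows opposite genes of MHC class I antigen presentation rose as a group. Tap1, a subunit of the peptide transporter, and Psmb9, a catalytic subunit of the immunoproteasome, lie head to head and overlap by 212 exon bases. The Tap1 row (opposite Psmb9, chr17:34187553-34197225, plus strand) held 241, 128 and 139 CPM in DFMO + cytokines libraries, against 4.73, 0 and 4.01 CPM in DFMO libraries (log2 fold change 5.74 ± 0.63, adjusted p = 6.3e-10). The Psmb9 row (opposite Tap1) held 34.5, 85.3 and 55.6 CPM in DFMO + cytokines libraries, against 0, 0 and 0 CPM in DFMO libraries, at least 27.4-fold higher (adjusted p = 9.22e-07). Both rows were close to or at 0 in DFMO alone.

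The Emc9 row shares 14 bases with Psme1, which codes for a subunit of the PA28 proteasome activator. It held 629, 471 and 537 CPM in DFMO + cytokines libraries, against 26, 37.4 and 26.1 CPM in DFMO libraries (log2 fold change 4.18 ± 0.24, adjusted p = 1.09e-19). The Cast row, opposite the peptide-trimming aminopeptidase Erap1 over 834 bases, held 122, 186 and 233 CPM in DFMO + cytokines libraries, against 11.8, 13.2 and 8.02 CPM in DFMO libraries (log2 fold change 4.02 ± 0.41, adjusted p = 7.83e-11). Neither row had an overlap between groups. The 9330175E14Rik row, opposite Nlrc5, the transactivator of MHC class I genes, held 69, 103 and 79.1 CPM in DFMO + cytokines libraries, against 2.36, 0 and 2 CPM in DFMO libraries. With 2 counts in DFMO this was 58.2-fold, with an interval of 15.7 to 486 from counting error (adjusted p = 3.73e-08).

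Rows at the MHC class I genes themselves rose as well, though reads may be shared or split among these near-identical genes. The A930015D03Rik row, opposite the nonclassical class I gene H2-T22 over 1003 bases, held 299.8, 236 and 272 CPM in DFMO + cytokines libraries, against 4.73, 17.6 and 32.1 CPM in DFMO libraries (log2 fold change 3.83 ± 0.35, adjusted p = 2.56e-12). The H2-T22 row, facing it, held 287, 334 and 319 CPM with cytokines, against 35.5, 74.8 and 68.1 CPM in DFMO alone (log2 fold change 2.38 ± 0.25, adjusted p = 9.14e-11). The H2-Q4 row (opposite Gm11131) held 722, 622 and 646 CPM in DFMO + cytokines libraries, against 9.46, 28.6 and 22 CPM in DFMO libraries (log2 fold change 5.01 ± 0.28, adjusted p = 6.15e-20). The B2m row, of the light chain that all class I molecules share, has no exon opposite and held 45.1, 53.9 and 94.1 CPM with cytokines, against 0, 0 and 0 CPM in DFMO alone, at least 30.2-fold higher (adjusted p = 1.71e-06). The H2-T23 row held 18.6, 58.4 and 32.1 CPM with cytokines, against 0, 0 and 0 CPM in DFMO alone, at least 17.1-fold higher (adjusted p = 2.16e-05). No DFMO library held a read in either of these last 2 rows.

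By the gene opposite, 7 of 9 tested rows of the antigen presentation list rose and none fell, with a median log2 fold change of 4.18 (4.02 with rows at 0 at their bound). The other 2, Brd2 and Catsper2 (opposite CR974462.3 and H2-DMa, and opposite Pdia3), had log2 fold changes of 0.44 and -0.17, and 6 of the 9 passed the filter only through libraries with cytokines. The rows of Dexi (opposite Ciita) and 9330175E14Rik count in both the interferon and this list. By row symbol 8 of 16 rose and none fell, against 7.03% of all rows higher, and 8 of the 16 passed only through libraries with cytokines.

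Promoters of the genes opposite were searched for the core of the interferon-stimulated response element, that is GAAA, any 2 bases and again GAAA, on either strand, in the RefSeq window of 250 bases before to 50 after each start site (GRCm38.p6). Of 29 genes with a window that lie opposite rows raised at least 4-fold, 8 (27.6%) held the core, against 46 of 1311 (3.51%) opposite all rows tested and 1079 of 27025 (3.99%) in all windows. It stood in 10 of 117 (8.55%) opposite all rows that rose and in 1 of 88 (1.14%) opposite rows that fell. One narrow form of the NF-kB letters, GGG, any base and ATTTCC, stood in none of the 29 and 2 of 1311 (0.153%). It does not match GGGACTTTCC, which stands in windows of Nfkb2, so this search cannot show whether NF-kB sites are absent. The core stood in the windows of Gbp2, Tmem140, Psme1, Erap1 and H2-T22, and not in those of Il18bp, Dtx3l, Psmb9 or Tap1. A match is a description of these letters and not a bound site. The upstream 250 bases of 3 of these genes are shown as examples of windows that hold the core, which is in capitals. The rows opposite Gbp2 and Tmem140 rose furthest of those listed here, and H2-T22 is shown as a class I gene. They lie at chr3:142620413-142620662, plus strand for Gbp2, chr6:34862896-34863145, plus strand for Tmem140 and chr17:36042743-36042992, minus strand for H2-T22.
Gbp2: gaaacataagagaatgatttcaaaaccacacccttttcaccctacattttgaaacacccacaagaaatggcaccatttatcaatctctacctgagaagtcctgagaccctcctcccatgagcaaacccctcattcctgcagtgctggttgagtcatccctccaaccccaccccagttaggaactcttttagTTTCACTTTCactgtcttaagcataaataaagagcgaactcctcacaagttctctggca
Tmem140: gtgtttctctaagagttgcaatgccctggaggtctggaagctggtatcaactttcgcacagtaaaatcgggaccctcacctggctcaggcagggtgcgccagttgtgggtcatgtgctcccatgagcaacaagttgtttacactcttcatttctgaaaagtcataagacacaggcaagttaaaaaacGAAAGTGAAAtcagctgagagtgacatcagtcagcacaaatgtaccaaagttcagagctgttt
H2-T22: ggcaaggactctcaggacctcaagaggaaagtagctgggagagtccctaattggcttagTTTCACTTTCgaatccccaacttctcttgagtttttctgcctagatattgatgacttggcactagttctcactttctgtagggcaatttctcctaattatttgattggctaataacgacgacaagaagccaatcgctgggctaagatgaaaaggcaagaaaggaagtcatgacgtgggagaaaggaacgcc
In Gbp2 and Tmem140 the core starts 59 and 63 bases before the start site, while in H2-T22 it starts 191 bases before.

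NF-kB signalling was read mainly through the Psd row. Psd overlaps 299 exon bases of Nfkb2, which codes for the NF-kB subunit precursor p100 (chr19:46312087-46327156, minus strand for the Psd row). It held 3476, 2238 and 2851 CPM in DFMO + cytokines libraries, against 385, 409 and 413 CPM in DFMO libraries, a 7.09-fold rise with no overlap (log2 fold change 2.82 ± 0.13, adjusted p = 4.53e-23). The Nfkb2 row itself, opposite Psd and AC114539.1, held 281, 179.6 and 145 CPM with cytokines, against 75.7, 81.4 and 78.2 CPM in DFMO alone (log2 fold change 1.36 ± 0.31, adjusted p = 0.00129). The Serpinb6a row lies opposite Nqo2, 1110046J04Rik and Ripk1, a kinase of TNF receptor signalling, and held 180.4, 189 and 148 CPM with cytokines, against 56.7, 70.4 and 70.1 CPM in DFMO alone (log2 fold change 1.38 ± 0.28, adjusted p = 0.000203). The Ccer2 row (opposite Nfkbib, an inhibitor of NF-kB) had a log2 fold change of 2.99 ± 0.96, adjusted p = 0.0273, and the Gm20319 row (opposite Il1rap, a chain of the IL-1 receptor) of 0.57 ± 0.20, adjusted p = 0.0455. Ccer2 lost its call without DFMO + cytokines replicates 1 and 3 or DFMO replicates 2 and 3 (adjusted p = 0.101 to 0.115). Gm20319 lost its call without each of the 6 libraries in turn (adjusted p = 0.0551 to 0.152). All 4 tested rows opposite genes of the NF-kB list rose, against 7.03% of all rows tested, with a median log2 fold change of 2.10, and 1 of them passed the filter only through libraries with cytokines. By row symbol 1 of 6 rose.

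Several rows opposite or named for chemokines and other secreted mediators rose. Those given here by their own symbol are described as rows, with the limit on symbols stated above. The Zmynd15 row lies opposite Cxcl16, a chemokine made as a membrane protein, over 552 bases and held 159, 256 and 158 CPM in DFMO + cytokines libraries, against 0, 4.4 and 6.01 CPM in DFMO libraries (log2 fold change 5.63 ± 0.60, adjusted p = 2.06e-10). The rows of the CXCR3 ligands Cxcl9 and Cxcl10 held no read in any DFMO library. With cytokines the Cxcl9 row held 164, 240.2 and 317 CPM, at least 113-fold higher (adjusted p = 3.46e-15), and the Cxcl10 row (opposite Art3) held 7.96, 35.9 and 59.9 CPM, at least 16.7-fold higher (adjusted p = 7.11e-05).

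The row of Gdnf, a neurotrophic factor, held 616, 529.8 and 519.8 CPM in DFMO + cytokines libraries, against 0, 0 and 0 CPM in DFMO libraries. It was at least 253-fold higher (adjusted p = 1.09e-19), and its 711 counts with cytokines were spread evenly over the 3 libraries. The row of the complement gene C2 (opposite Zbtb12) held 146, 110.0 and 143 CPM with cytokines, against 0, 0 and 0 CPM in DFMO alone, at least 60.8-fold higher (adjusted p = 1.1e-09). The Il21 row (opposite Gm12534) held 66.3, 60.6 and 87.7 CPM with cytokines, against 0, 0 and 0 CPM in DFMO alone, at least 33.1-fold higher (adjusted p = 3.77e-05). The Il7 row, of a lymphocyte growth factor (opposite Gm16685), held 369, 276 and 255 CPM with cytokines, against 0, 8.8 and 2 CPM in DFMO alone (log2 fold change 6.26 ± 0.53, adjusted p = 1.72e-13). By row symbol, 6 of 11 tested rows of the secreted mediator list rose and 1, Igf2, fell, against 7.03% and 6.09% of all rows. The 6 that rose had no read in DFMO, and 6 of the 11 passed the filter only through libraries with cytokines. The rows of Cfb, Gdf15, Il1a and Cxcl16 were not called, with log2 fold changes of -0.21, -0.56, 0.37 and 0.14. By the gene opposite, 2 of 4 rose and 1 fell.

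Other large rises lay outside the lists. The Tmem200a row (opposite Gm9767) held 334, 325 and 239.6 CPM with cytokines, against 4.73, 4.4 and 8.02 CPM in DFMO alone (log2 fold change 5.63 ± 0.39, adjusted p = 2.56e-16). The Atp10b row, opposite the predicted genes Gm12144, Gm12146 and Gm12147, held 254 counts with cytokines and 1 without, a ratio of 271-fold, with an interval of 48.2 to 10747 (adjusted p = 4.55e-13). The Hps3 row overlaps Cp, which codes for the copper-carrying ferroxidase ceruloplasmin, by 108 bases and held 93 counts with cytokines and 1 without, a ratio of 99.2-fold, with an interval of 17.4 to 3961 (adjusted p = 4.8e-07). The Sec23ip row (opposite Gm44672) held 119 counts with cytokines and 3 without, a ratio of 42.3-fold, with an interval of 14.1 to 208 (adjusted p = 5.42e-07). These intervals cover counting error only. Ppp4r4, Palm2 and Gm4841, rows with no exon opposite, held no read in DFMO and rose at least 60.1-fold, at least 28.5-fold and at least 24.9-fold, in that order (adjusted p = 7.4e-12, adjusted p = 2.12e-06 and adjusted p = 8.24e-07).

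Cell death and redox genes gave single rows rather than groups. The Bcl2l13 row overlaps 628 bases of Bid, which codes for a proapoptotic BH3-only protein, and held 109, 184 and 149.7 CPM in DFMO + cytokines libraries, against 18.9, 11 and 16 CPM in DFMO libraries (log2 fold change 3.25 ± 0.43, adjusted p = 6.72e-08). The Mlkl row, of the effector of necroptosis, held 157, 135 and 133 CPM with cytokines, against 4.73, 4.4 and 4.01 CPM in DFMO alone (log2 fold change 4.93 ± 0.57, adjusted p = 1.58e-09). The Gm15441 row overlaps 606 bases of Txnip, an inhibitor of thioredoxin, and held 746, 905 and 798 CPM in DFMO + cytokines libraries, against 364, 299 and 345 CPM in DFMO libraries, a 2.43-fold rise (log2 fold change 1.28 ± 0.14, adjusted p = 2.14e-10). In each of these 3 rows the groups did not overlap. The Mars row, opposite the stress transcription factor gene Ddit3 (CHOP) over 68 bases, held 469.6, 419.8 and 398 CPM with cytokines, against 227, 246 and 257 CPM in DFMO alone (log2 fold change 0.81 ± 0.17, adjusted p = 0.000379), whereas the Ddit3 row, opposite Mars and Gm4189, had a log2 fold change of 0.031 ± 0.14, adjusted p = 0.936. The Spout1 row, opposite the mitochondrial nuclease gene Endog, fell (log2 fold change -0.84 ± 0.23, adjusted p = 0.00702) and lost its call without DFMO replicate 1 (adjusted p = 0.127).

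Of the 6 tested rows opposite apoptosis genes 1 rose and 1 fell, and of the 6 opposite genes of the integrated stress response 1 rose and none fell. Over all rows tested 7.03% rose and 6.09% fell, and 1 call in 6 rows is not set apart from these shares. None of the 5 rows opposite genes of ER chaperones and ER stress changed, nor did the 2 opposite genes of nitric oxide and arginine metabolism, of polyamine metabolism or of glycolysis. By row symbol 1 of 15 rows of the ER list fell and none rose (median log2 fold change -0.56), against 6.09% of all rows lower. It was Pdia6 (log2 fold change -1.72 ± 0.51, adjusted p = 0.0146), whose call was lost without some single libraries, as given below. The Nos2 row, of the inducible nitric oxide synthase, held 4, 12 and 2 counts in DFMO + cytokines libraries and none in DFMO libraries, and did not pass the filter. The Odc1 row, of the enzyme that DFMO inhibits, held 17 counts with cytokines and 16 without over 3 libraries (log2 fold change 0.20 ± 1.13, adjusted p = 0.95). No exon lies opposite either row, and with so few reads the response of these 2 genes was not measured here. The plot of the gene lists gives the counts for each list.

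**Figure D2:**
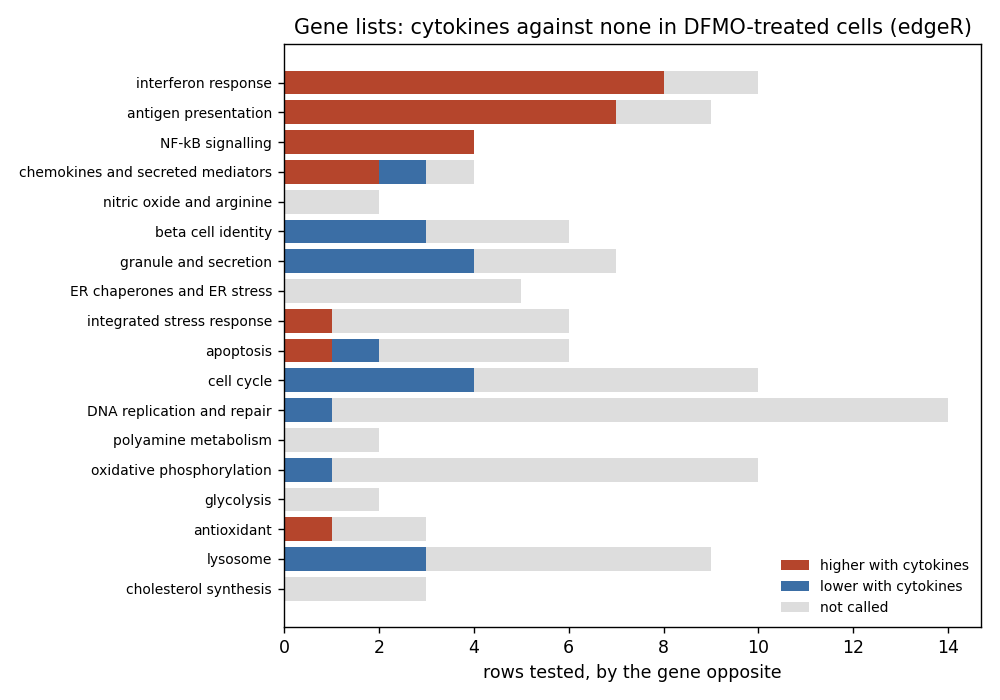
Number of rows tested in each gene list, with rows assigned by the gene opposite, split into those higher with cytokines, those lower with cytokines and those not called at an adjusted p under 0.05 (edgeR). Rows that rose fill 8 of 10 in the interferon list and 7 of 9 in antigen presentation, while the called rows of the beta cell, granule, cell cycle and lysosome lists fell.

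Rows opposite genes of the beta cell secretory pathway fell moderately. The Pcsk2os1 row, antisense to the prohormone convertase gene Pcsk2 over 260 exon bases, held 17648, 16371 and 16457 CPM in DFMO + cytokines libraries, against 27664, 28188 and 25618 CPM in DFMO libraries (log2 fold change -0.69 ± 0.08, adjusted p = 1.71e-09). The Pcsk2os2 row, opposite another 99 bases of Pcsk2, held 19649, 17011 and 16378 CPM in DFMO + cytokines libraries, against 27515, 29400 and 25244 CPM in DFMO libraries (log2 fold change -0.63 ± 0.082, adjusted p = 4.2e-08). Both fell without overlap, to 0.620 and 0.646 of the level in DFMO alone, and since they face the same gene they are not independent.

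The Bach2os row (opposite the transcription factor gene Bach2, 537 bases) held 50.4, 18 and 38.5 CPM with cytokines, against 123, 83.6 and 160.3 CPM in DFMO alone (log2 fold change -1.79 ± 0.37, adjusted p = 0.000275). The Kcnmb4os2 row, opposite the potassium channel subunit gene Kcnmb4, held 122, 89.8 and 111 CPM with cytokines, against 218, 218 and 283 CPM in DFMO alone (log2 fold change -1.16 ± 0.24, adjusted p = 0.000317). The groups of both rows stood apart. The second row opposite Kcnmb4, Kcnmb4os1, had a log2 fold change of -0.83 ± 0.24, adjusted p = 0.0144 with overlapping groups and lost its call without DFMO + cytokines replicates 1 and 3 or DFMO replicates 2 and 3 (adjusted p = 0.0502 to 0.295). The Nkx2-2os row, opposite the islet transcription factor gene Nkx2-2, held 3590, 2752 and 2646 CPM with cytokines, against 3156, 3126 and 3092 CPM in DFMO alone. The DFMO values lay within the range of the DFMO + cytokines values (log2 fold change -0.062 ± 0.10, adjusted p = 0.795).

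The Chdh row (opposite the L-type calcium channel gene Cacna1d, 589 bases) held 50.4, 80.8 and 109 CPM with cytokines, against 154, 222 and 164 CPM in DFMO alone (log2 fold change -1.15 ± 0.31, adjusted p = 0.00755) and lost its call without DFMO + cytokines replicate 1 or DFMO replicate 2 (adjusted p = 0.0859 to 0.0921). The Mpv17l2 row, opposite the vesicle GTPase gene Rab3a over 29 bases, held 5 counts with cytokines and 50 without (log2 fold change -3.13 ± 0.92, adjusted p = 0.0147) and lost its call without DFMO + cytokines replicate 3 or DFMO replicate 2 (adjusted p = 0.068 to 0.142). By the gene opposite, 3 of 6 rows of the beta cell identity list fell and none rose (median log2 fold change -0.45), and 4 of 7 of the granule and secretion list fell and none rose (median -0.69), against 6.09% of all rows lower. The falls sit in 2 genes of the identity list and 3 of the granule list.

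Rows that carry the beta cell genes' own symbols held few reads but moved the same way. The Ins2 row, of insulin 2, held 84.9, 123 and 113 CPM with cytokines, against 291, 167 and 283 CPM in DFMO alone (log2 fold change -1.19 ± 0.28, adjusted p = 0.00133), and the Iapp row, of the co-secreted islet amyloid polypeptide, held 95.5, 164 and 182 CPM with cytokines, against 265, 319 and 331 CPM in DFMO alone (log2 fold change -1.04 ± 0.25, adjusted p = 0.00236). The Pdx1 row, of an islet transcription factor, held 7.96, 20.2 and 32.1 CPM with cytokines, against 82.7, 85.8 and 80.2 CPM in DFMO alone, a 4.13-fold fall (adjusted p = 0.00105). The Chga row, of the granule protein chromogranin A, held 698, 729.6 and 672 CPM with cytokines, against 988, 931 and 1108 CPM in DFMO alone (log2 fold change -0.53 ± 0.13, adjusted p = 0.00248). In none of these 4 rows did the groups overlap. The Syt13 row held 2 counts with cytokines and 44 without, lower by a ratio of 20.6-fold, with an interval of 5.38 to 176 (adjusted p = 0.00109). The Scg2 row had a log2 fold change of -0.93 ± 0.30, adjusted p = 0.0319 and lost its call without each of the 6 libraries in turn except DFMO replicate 2 (adjusted p = 0.0633 to 0.335). The Ins1 row held 2 counts with cytokines and 15 without and was not tested. By row symbol, 3 of 14 identity rows and 3 of 19 granule rows fell and none rose, against 6.09% of all rows lower.

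The strongest fall among abundant rows was in rows at the Igf2 locus, where the counts of Gm49394 and Igf2 cannot be told apart. Igf2 is the gene of the growth factor IGF2, which beta cells are known to secrete. The Igf2os row (chr7:142659693-142670356, plus strand) lies opposite Gm49394 over 1142 bases and Igf2 over 98, and held 2812, 2227 and 2582 CPM in DFMO + cytokines libraries, against 11968, 11456 and 7568 CPM in DFMO libraries. It fell 4.07-fold (log2 fold change -2.02 ± 0.12, adjusted p = 3.6e-19), with the third DFMO library lower than the other two. The Igf2 row held 443, 337 and 409 CPM in DFMO + cytokines libraries, against 1979, 1676 and 1495 CPM in DFMO libraries (log2 fold change -2.12 ± 0.13, adjusted p = 2.07e-18). The groups of both rows were apart by more than 2-fold at their nearest values.

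Other large falls came from rows with fewer reads. The Sphk1 row, of sphingosine kinase 1 (opposite Gm29292), held 3 counts with cytokines and 91 without, lower by a ratio of 28.4-fold, with an interval of 9.42 to 140.4 (adjusted p = 5.05e-06). The Itgad row, opposite 4931431B13Rik, Gm39091 and the cytochrome c oxidase gene Cox6a2, held 18.6, 15.7 and 4.28 CPM with cytokines, against 96.9, 128 and 80.2 CPM in DFMO alone (log2 fold change -2.99 ± 0.41, adjusted p = 1.53e-07). The Il12rb2 row, which overlaps 1519 bases of Serbp1, held 29.2, 44.9 and 29.9 CPM with cytokines, against 177, 143 and 208 CPM in DFMO alone (log2 fold change -2.33 ± 0.36, adjusted p = 2e-06). The Fbxl13 row (opposite Lrrc17) had a log2 fold change of -2.20 ± 0.34, adjusted p = 1.67e-06, the Gm19461 row (opposite Plekha6) of -2.23 ± 0.37, adjusted p = 8.67e-06 and the Tbc1d16 row (opposite Gm26888) of -1.85 ± 0.46, adjusted p = 0.00304. These rows had no overlap between groups, which the rule that named them required.

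Of rows with no exon opposite, Kcnf1, of a potassium channel subunit, held 5 counts with cytokines and 87 without (log2 fold change -3.94 ± 0.81, adjusted p = 0.000262), with 4921525O09Rik (log2 fold change -3.07 ± 0.75, adjusted p = 0.00236) and 1700010B08Rik (log2 fold change -2.79 ± 0.66, adjusted p = 0.00161) also among the largest falls. The Irs2 row, of the insulin receptor substrate 2 (opposite 9530052E02Rik), had a log2 fold change of -1.85 ± 0.57, adjusted p = 0.0201 and lost its call without DFMO + cytokines replicates 1 and 3 or DFMO replicates 1 and 2 (adjusted p = 0.0514 to 0.213). The Kif4 row (opposite Pdzd11, log2 fold change -2.10 ± 0.54, adjusted p = 0.00434) lost its call without DFMO + cytokines replicate 3 (adjusted p = 0.0504), and the 1700071M16Rik row (opposite Pla2g7, log2 fold change -2.52 ± 0.69, adjusted p = 0.00836) without DFMO + cytokines replicate 3 or DFMO replicate 2 (adjusted p = 0.0786 to 0.136). Rangap1 (opposite Zc3h7b, log2 fold change -2.05 ± 0.69, adjusted p = 0.0391) lost its call without each of the 6 libraries in turn except DFMO replicate 3 (adjusted p = 0.0622 to 0.239). Dcakd (opposite Nmt1, log2 fold change -1.94 ± 0.65, adjusted p = 0.0391) lost its call without each of the 6 libraries in turn except DFMO replicate 3 (adjusted p = 0.0527 to 0.243). Hapln2 (log2 fold change -3.55 ± 1.23, adjusted p = 0.0455) lost its call without each of the 6 libraries in turn (adjusted p = 0.1 to 0.198).

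Rows opposite cyclin genes of S phase fell. The Ints8 row (chr4:11199158-11254258, minus strand) overlaps 609 exon bases of Ccne2, cyclin E2, which acts at entry into S phase. It held 1876, 2397 and 1929 CPM in DFMO + cytokines libraries, against 3977, 3822 and 4112 CPM in DFMO libraries, a fall to 0.521 of the DFMO level (log2 fold change -0.94 ± 0.093, adjusted p = 2.78e-11). The Exosc9 row overlaps 510 exon bases of Ccna2, cyclin A2, and held 2467, 2539 and 2710 CPM in DFMO + cytokines libraries, against 4173, 4235 and 4261 CPM in DFMO libraries, a fall to 0.609 (log2 fold change -0.71 ± 0.089, adjusted p = 1.18e-08). Both falls were far larger than the spread between libraries. The row named Ccna2, which faces Exosc9 over the same bases, moved the other way with 1149, 1309 and 1320 CPM with cytokines, against 972, 904 and 978 CPM in DFMO alone (log2 fold change 0.41 ± 0.11, adjusted p = 0.00888), and its call was lost without DFMO + cytokines replicate 3 (adjusted p = 0.0531).

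The Bysl row (opposite Ccnd3, cyclin D3) held 568, 375 and 443 CPM with cytokines, against 641, 812 and 691 CPM in DFMO alone (log2 fold change -0.64 ± 0.15, adjusted p = 0.00142). The Cdc23 row, which overlaps 1271 bases of the mitotic kinesin gene Kif20a, had a log2 fold change of -0.36 ± 0.11, adjusted p = 0.0245 and lost its call without DFMO + cytokines replicate 2 or DFMO replicates 1, 2 and 3 (adjusted p = 0.0541 to 0.365). Of 10 cell cycle rows taken by their opposite gene, 4 fell and none rose (median log2 fold change -0.38), against 6.09% of all rows lower. By row symbol 3 of 18 fell and 1 rose, the falls being those of Aurka (-1.17 ± 0.34, adjusted p = 0.015), Smc4 (-2.59 ± 0.76, adjusted p = 0.0142) and Mki67. Aurka lost its call without DFMO + cytokines replicates 1 and 3 or DFMO replicates 2 and 3 (adjusted p = 0.0547 to 0.104). Smc4 lost its call without DFMO + cytokines replicates 2 and 3 or DFMO replicate 1 (adjusted p = 0.0506 to 0.112). The Mki67 row, of a proliferation marker, held no count with cytokines and 21 in DFMO, at least 6.56-fold lower (adjusted p = 0.0161).

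Genes of DNA replication and repair gave 1 call, a fall, in 14 rows by the gene opposite, a share near the 6.09% of all rows that fell, so it is described as a single row. The Zfp276 row overlaps 920 bases of Fanca, a core protein of the Fanconi anaemia repair pathway, and 154 of Vps9d1. It held 297, 231 and 282 CPM in DFMO + cytokines libraries, against 669, 569.8 and 559 CPM in DFMO libraries (log2 fold change -1.15 ± 0.15, adjusted p = 4.9e-08), with no overlap between groups. The other 13 rows were not called, and the median of all 14 was -0.44. The plot of falling rows shows the spread of the libraries.

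**Figure D3:**
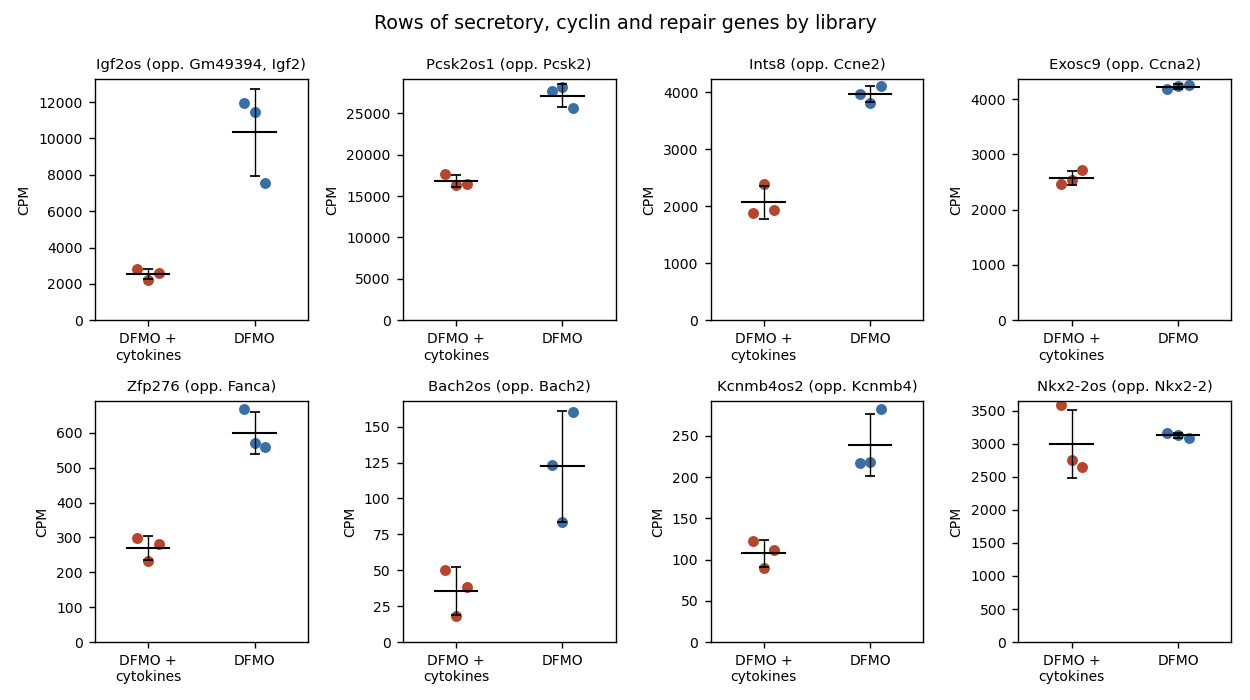
CPM for 8 rows in the 3 DFMO + cytokines libraries (left) and the 3 DFMO libraries (right), each named with the genes opposite (opp.), with the mean and SD in black. In 7 rows the groups are apart with DFMO + cytokines lower, while for Nkx2-2os the DFMO libraries lie within the range of the DFMO + cytokines libraries.

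Lysosomal and mitochondrial genes gave few calls. By the gene opposite, 3 of 9 lysosome rows fell and none rose, against 6.09% of all rows lower. The Neurl2 row, opposite the cathepsin A gene Ctsa over 324 bases, held 618, 440.0 and 548 CPM with cytokines, against 813, 1008 and 926 CPM in DFMO alone (log2 fold change -0.78 ± 0.15, adjusted p = 8.66e-05). The Pltp row, opposite Ctsa over 495 bases and with more counts, was not called. Its mean was 1415 CPM with cytokines and 1723 CPM in DFMO alone (log2 fold change -0.28 ± 0.12, adjusted p = 0.11). The Ctsa row (opposite Pltp and Neurl2) had a log2 fold change of -1.02 ± 0.31, adjusted p = 0.0191 and lost its call without DFMO + cytokines replicates 2 and 3 or DFMO replicates 2 and 3 (adjusted p = 0.0626 to 0.108). The Tctn1 row (opposite Gm15481 and the proton channel gene Hvcn1, log2 fold change -0.91 ± 0.29, adjusted p = 0.0284) lost its call without DFMO + cytokines replicates 1 and 2 or DFMO replicate 1 (adjusted p = 0.109 to 0.22). The Pdia6 row (opposite the vacuolar ATPase gene Atp6v1c2, log2 fold change -1.72 ± 0.51, adjusted p = 0.0146) lost its call without DFMO + cytokines replicate 2 or DFMO replicates 2 and 3 (adjusted p = 0.0735 to 0.0991). The Grn row, opposite Fam171a2 and by its own symbol in this list, had a log2 fold change of 2.77 ± 0.96, adjusted p = 0.0455 and lost its call without each of the 6 libraries in turn except DFMO replicate 2 (adjusted p = 0.0558 to 0.182). Of 10 rows opposite genes of oxidative phosphorylation 1 fell, the Itgad row described above, which is not set apart from the 6.09% over all rows, and by row symbol the Cox15 row fell (opposite Entpd7 and Cutc, log2 fold change -0.85 ± 0.18, adjusted p = 0.000494). No row of the cholesterol list changed.

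Markers of cells other than beta cells were read by row symbol, which in these libraries measures a gene only weakly. Of 11 rows of other islet cell markers 7 held no read, as did 12 of 17 exocrine and duct rows, 11 of 15 immune rows and 8 of 13 stromal and endothelial rows. The summed level of the immune rows was 2.24 to 15.0 CPM in DFMO + cytokines libraries and 6.60 to 9.46 CPM in DFMO libraries, and Ptprc, the defining leukocyte marker, held no read in any of the 6. The Sst row was at 0 with cytokines and held 8 counts in DFMO, and the Gcg row was at 0 with cytokines and held 15 in DFMO, 14 of them in replicate 2. Of beta cell markers, the Slc2a2 row held no count with cytokines and 2 in DFMO.

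The cytokine effect in vehicle-treated cells, from 6 other libraries, changed 327 rows (9.90%), 212 higher (6.42%) and 115 lower (3.48%). Of the 232 rows higher in DFMO, 150 (64.7%) were higher in vehicle too, which is 70.8% of the vehicle list. Of the 201 rows lower in DFMO, 79 (39.3%) were lower in vehicle too, 68.7% of that list. The Myh7b row alone was called in both with opposite directions. Across the 3302 rows the log2 fold changes had a Pearson r of 0.708 and a Spearman rho of 0.431, a description over rows that share libraries within each contrast. A call in one setting and not in the other does not show a difference, which was tested directly.

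The difference of the cytokine effects, DFMO minus vehicle, passed the threshold in 14 rows (0.424%), 6 with a more positive effect in DFMO (0.182%) and 8 with a more negative one (0.242%), while 279 had an unadjusted p under 0.05. This count was 5 to 19 when a single library was left out and 27 with DESeq2. The plot of both cytokine effects marks these rows.

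**Figure D4:**
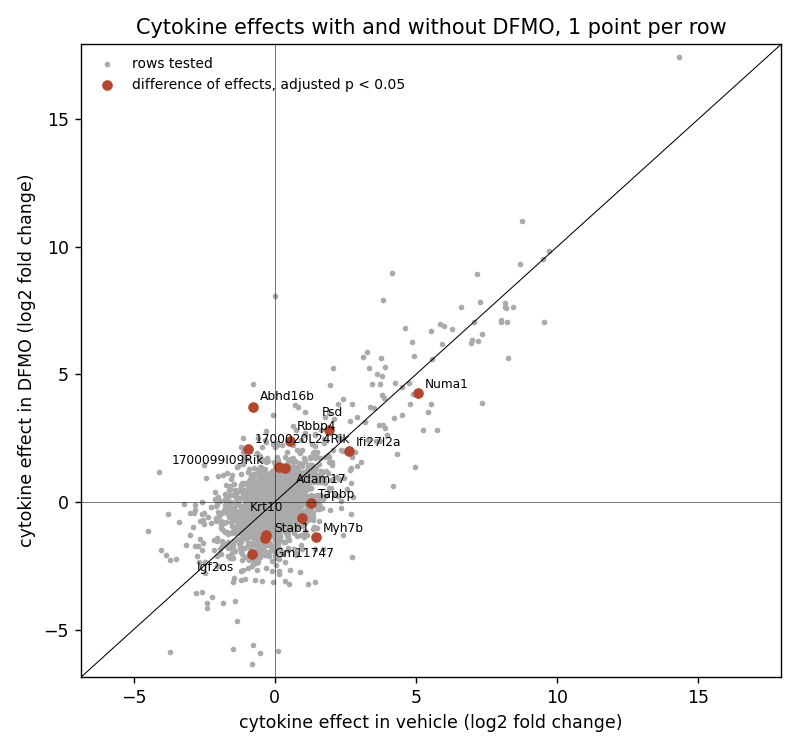
Log2 fold change with cytokines in vehicle (horizontal axis) and in DFMO (vertical axis) for each of the 3302 rows tested, with the line of equal effects, and the 14 rows whose effects differed (adjusted p under 0.05, edgeR) in red. The Mir6381 row stands at the upper right (17.4 in DFMO and 14.3 in vehicle). Some strongly induced rows lie near the line, such as 3110062M04Rik (9.34 in DFMO and 8.68 in vehicle). Others lie off it, such as C2 (8.97 in DFMO and 4.16 in vehicle) and Il21 (8.08 in DFMO and 0 in vehicle). Where a row held no read in a group, its position is poorly determined.

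The clearest difference was in the Rbbp4 row (chr4:129307100-129335370, minus strand), opposite Gm26722 over 796 bases and Sync, a gene of an intermediate filament protein, over 782. It held 1393, 1154 and 1268 CPM in DFMO + cytokines libraries, against 244, 196 and 283 CPM in DFMO libraries (log2 fold change 2.40 ± 0.16, adjusted p = 3.39e-17). It held 483, 404 and 595 CPM in vehicle + cytokines libraries, against 293, 349 and 386 CPM in vehicle libraries. The rise was 5.28-fold in DFMO and much smaller in vehicle, and the difference of log2 fold changes was 1.87 ± 0.22, adjusted p = 1.74e-07. The DFMO + cytokines libraries were the highest of all 12.

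Igf2os fell in both settings and further in DFMO. In addition to the DFMO values above it held 1170, 1126 and 1250 CPM in vehicle + cytokines libraries, against 2246, 2209 and 1759 CPM in vehicle libraries, and the difference was -1.22 ± 0.16, adjusted p = 4.11e-06. Its level without cytokines was higher in DFMO than in vehicle, and so was its level with cytokines. The row named Igf2, which faces Igf2os, had a difference of -0.45 ± 0.18, adjusted p = 0.386, and was not called. For the Psd row (opposite Nfkb2) the vehicle values were 2996, 2691 and 3065 CPM in vehicle + cytokines libraries, against 704, 929.8 and 692 CPM in vehicle libraries, and the difference was 0.91 ± 0.18, adjusted p = 0.00549. The levels with cytokines overlapped between DFMO and vehicle, whereas without cytokines every DFMO library was lower than every vehicle library.

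The 1700020L24Rik row (opposite Mmp28, a matrix metalloproteinase gene) held 130.0, 110.0 and 111 CPM in DFMO + cytokines libraries, against 21.3, 8.8 and 50.1 CPM in DFMO libraries. It held 20.8, 54.9 and 43.7 CPM in vehicle + cytokines libraries, against 89.6, 71.5 and 73 CPM in vehicle libraries. The row rose with cytokines in DFMO and was not called in vehicle, with a difference of 3.06 ± 0.61, adjusted p = 0.00689. The calls of Rbbp4, Igf2os, Psd and 1700020L24Rik held in all fits that left out 1 library.

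For the Numa1 row (opposite Il18bp) the rise was smaller in DFMO, with 4303, 3352 and 4111 CPM in vehicle + cytokines libraries, against 91.4, 126 and 130.2 CPM in vehicle libraries beside the DFMO values above and a difference of -0.82 ± 0.19, adjusted p = 0.0322. The Ifi27l2a row likewise held 4518, 5325 and 4968 CPM in vehicle + cytokines libraries, against 746, 734 and 902 CPM in vehicle libraries, with a difference of -0.64 ± 0.15, adjusted p = 0.0253. With cytokines, every DFMO library of both rows was lower than every vehicle library. Numa1 lost this call without DFMO + cytokines replicates 2 and 3, DFMO replicates 2 and 3, vehicle + cytokines replicates 1 and 3 or vehicle replicate 1 (adjusted p = 0.0613 to 0.187). Ifi27l2a lost it without DFMO + cytokines replicate 2, DFMO replicate 2, vehicle + cytokines replicates 2 and 3 or vehicle replicates 1 and 2 (adjusted p = 0.0763 to 0.137). The remaining 8 rows are given among the flagged results. Of the interferon list by the gene opposite 1 of 10 rows differed, of antigen presentation 0 of 9 and of NF-kB signalling 1 of 4, against 0.424% of all rows. Rows with no read in DFMO and none in vehicle, 20 of the 3302, could not pass this test, since the difference has no usable error there. They include 1 of the 10 interferon rows and 2 of the 9 antigen presentation rows. The Gdnf, Il21 and Cxcl9 rows are also among them. In vehicle + cytokines libraries Gdnf held 113, 147 and 80.4 CPM and Il21 held 0, 0 and 0 CPM, below each DFMO + cytokines value given above. Cxcl9 held 229, 248 and 193 CPM there, within the range of its DFMO + cytokines values. Whether these effects differed with DFMO could not be told from this test.

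**Figure D5:**
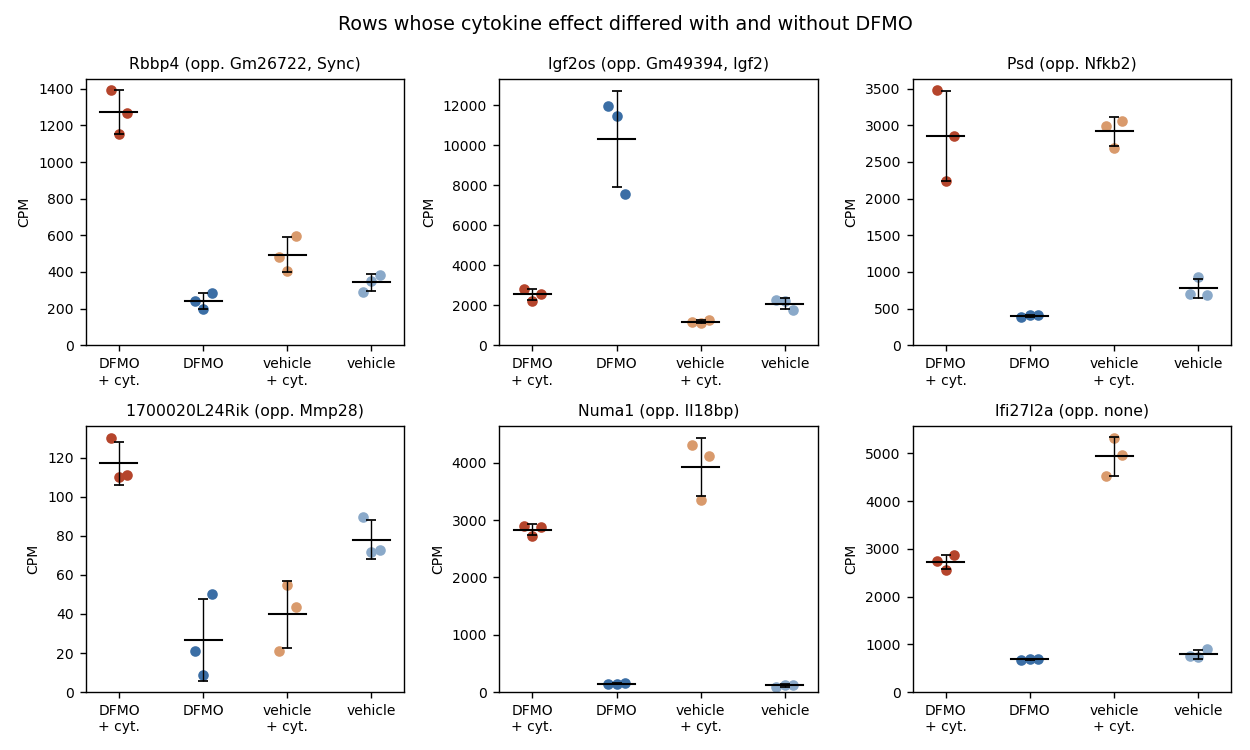
CPM in the 12 libraries of the fit for 6 of the 14 rows whose cytokine effect differed, with the genes opposite (opp.), 1 point per library and the mean and SD of 3 libraries in black. Rbbp4 reaches its highest level in DFMO + cytokines, and Numa1 and Ifi27l2a reach theirs in vehicle + cytokines.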

How the data were processed

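Poly(A) RNA of MIN6 cells was, per the labels' protocols, sequenced on a NovaSeq machine from strand-specific TruSeq libraries. The authors deposited raw read counts per gene symbol. Per the submitters' processing notes HTSeq, FastQC and DESeq2 were used, with the mm10 build, and which aligner, gene models and strand option made the counts is not given in the sources used here. Counts of 2 were more frequent than counts of 1 (16555 against 10110 values), so counts were also tested halved.

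Rows were matched to GENCODE vM21 (24008 of 24557 by symbol, 191 by gene ID and 30 by synonym), 26 symbols altered by date conversion being repaired from the gene ID. The tests used the quasi-likelihood F test of edgeR 4.0.16 in R 4.3.3 (robust estimation, TMM factors, filterByExpr by group, 1 mean per group over 12 libraries). This left 3302 rows with 96.6% of the counts, and the common biological coefficient of variation was 0.26. P-values were adjusted with the Benjamini-Hochberg method over these rows. CPM use TMM factors, ± after a log2 fold change is a standard error obtained from the F statistic, and a row at 0 is set against a floor of 3 counts over the group. Ratios against 1 to 3 counts carry exact 95% intervals. Floors and intervals cover counting error only. They take each count as a separate read and were not recomputed on halved counts. Where reads were counted more than once, the intervals would be too narrow.

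Rows named were the 16 rising and 14 falling with the largest changes among called, non-overlapping rows with an exon opposite and at least 20 CPM, the 6 rising and 4 falling of the other rows, up to 6 called members of each of 22 gene lists, the leading rows of the difference, and Odc1, Ins1, Ins2 and Nos2. The members and lists were chosen with earlier results of these data known. Alternatives were DESeq2 1.42.0, its size factors, other filters, halved counts, other sets of rows or libraries, a replicate block and leaving out each library. A further promoter motif is not reported here.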

Additional observations from a re-analysis of the deposited data

Results flagged for a closer look

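In 14 rows the cytokine effect in DFMO differed from that in vehicle by the test of the difference itself (edgeR, adjusted p under 0.05). The differences of log2 fold changes were 1.87 in Rbbp4, -1.22 in Igf2os, 0.91 in Psd, 3.06 in 1700020L24Rik, -0.82 in Numa1 and -0.64 in Ifi27l2a, with the values by library given above.

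Each of the other 8 rows lost the call without at least 1 library, as Numa1 and Ifi27l2a did. Myh7b, the row of a myosin gene opposite Trpc4ap over 37 bases, held 39.8, 18 and 21.4 CPM in DFMO + cytokines libraries, against 68.6, 68.2 and 68.1 CPM in DFMO libraries. It held 109, 92.2 and 73.5 CPM in vehicle + cytokines libraries, against 38.4, 31.6 and 30.2 CPM in vehicle libraries, so that it fell in DFMO and rose in vehicle, and the difference was -2.83 ± 0.60, adjusted p = 0.0144. Its fall in DFMO lost its call without each of the 6 libraries in turn except DFMO + cytokines replicate 1 (adjusted p = 0.0625 to 0.146), and its difference without DFMO + cytokines replicates 2 and 3 or vehicle + cytokines replicate 1 (adjusted p = 0.0613 to 0.0809).

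Abhd16b, with no gene opposite, held 50.4, 42.7 and 87.7 CPM in DFMO + cytokines libraries, against 2.36, 4.4 and 6.01 CPM in DFMO libraries, beside 27.7, 2.19 and 18.4 CPM in vehicle + cytokines libraries, against 38.4, 21 and 23.8 CPM in vehicle libraries (difference 4.51 ± 1.02, adjusted p = 0.0253). The 1700099I09Rik row (opposite the kinase gene Mast4) held 448, 465 and 486 CPM in DFMO + cytokines libraries, against 170.2, 183 and 190.4 CPM in DFMO libraries, beside 231, 160.2 and 244 CPM in vehicle + cytokines libraries, against 225, 156 and 189 CPM in vehicle libraries (difference 1.21 ± 0.29, adjusted p = 0.0322). Both rose in DFMO and were not called in vehicle. The Adam17 row (opposite the esterase gene Iah1) held 719, 880.0 and 721 CPM in DFMO + cytokines libraries, against 215, 213 and 477 CPM in DFMO libraries, beside 1124, 1192 and 1192 CPM in vehicle + cytokines libraries, against 850.4, 892 and 967 CPM in vehicle libraries (difference 0.97 ± 0.23, adjusted p = 0.0368). Its vehicle levels were above its DFMO levels without cytokines.

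Gm11747 (opposite C1qtnf1) held 483, 370.4 and 357 CPM in DFMO + cytokines libraries, against 1293, 1148 and 794 CPM in DFMO libraries, beside 347, 268 and 292 CPM in vehicle + cytokines libraries, against 362, 473 and 306 CPM in vehicle libraries (difference -1.09 ± 0.24, adjusted p = 0.0214). Stab1 (opposite Nt5dc2) held 308, 199.8 and 179.7 CPM in DFMO + cytokines libraries, against 551, 598 and 543 CPM in DFMO libraries, beside 455, 373 and 485 CPM in vehicle + cytokines libraries, against 536, 559.6 and 546 CPM in vehicle libraries (difference -0.99 ± 0.24, adjusted p = 0.0322). Both fell in DFMO and were not called in vehicle. Tapbp, the row of the peptide-loading protein tapasin (opposite Gm19412), held 313, 278 and 304 CPM in DFMO + cytokines libraries, against 416, 319 and 194 CPM in DFMO libraries, beside 365, 307 and 257 CPM in vehicle + cytokines libraries, against 166, 116 and 96.8 CPM in vehicle libraries (difference -1.35 ± 0.32, adjusted p = 0.0322). Krt10 (opposite Gm11940) held 149, 175 and 263 CPM in DFMO + cytokines libraries, against 291, 387 and 230.5 CPM in DFMO libraries, beside 92.5, 101 and 103 CPM in vehicle + cytokines libraries, against 45.7, 71.5 and 36.5 CPM in vehicle libraries (difference -1.59 ± 0.40, adjusted p = 0.0489). These last 2 rows rose in vehicle and were not called in DFMO.

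The difference of Abhd16b lost its call without DFMO + cytokines replicate 3, DFMO replicates 1 and 2, vehicle + cytokines replicate 2 or vehicle replicate 1 (adjusted p = 0.0628 to 0.174). That of 1700099I09Rik lost it without DFMO + cytokines replicates 2 and 3, DFMO replicates 1 and 2, vehicle + cytokines replicates 1 and 2 or vehicle replicates 1 and 3 (adjusted p = 0.0638 to 0.171). Adam17 lost it without DFMO + cytokines replicates 2 and 3, DFMO replicates 1 and 2, vehicle + cytokines replicates 1, 2 and 3 or vehicle replicates 1, 2 and 3 (adjusted p = 0.0667 to 0.282). Gm11747 lost it without DFMO + cytokines replicates 2 and 3, DFMO replicates 1 and 2, vehicle + cytokines replicate 1 or vehicle replicates 1 and 3 (adjusted p = 0.0701 to 0.124). Stab1 lost it without DFMO + cytokines replicates 2 and 3, DFMO replicates 1 and 2, vehicle + cytokines replicates 1 and 3 or vehicle replicates 1, 2 and 3 (adjusted p = 0.0617 to 0.22). Tapbp lost it without DFMO + cytokines replicates 2 and 3, DFMO replicates 1 and 2, vehicle + cytokines replicates 1 and 2 or vehicle replicates 2 and 3 (adjusted p = 0.0747 to 0.189). Krt10 lost it without DFMO + cytokines replicates 1 and 2, DFMO replicates 1 and 2, vehicle + cytokines replicates 1, 2 and 3 or vehicle replicates 1 and 3 (adjusted p = 0.085 to 0.385).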

How the results depend on the processing

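Of the 97 named rows called in DFMO, 75 kept their call and direction in all fits that tested them, and 22 lost the call in at least 1 fit. Some rows with few counts did not enter every fit. The Mir6381 row was tested in 14 other fits, and the Mki67 row in 10. The 433 changed rows numbered 323 to 386 when 1 library was left out, and 343 to 445 under the other settings, 322 of 2081 among rows with an exon opposite. The higher rows numbered 180 to 215 and the lower 132 to 171 without 1 library, the lowest without DFMO replicate 2. The vehicle count of 327 was 228 to 291 without 1 library. The 14 differing rows were 27 with DESeq2's Wald test, 11 of them shared, with no adjusted p for 2304 rows, and 5 to 19 without 1 library. They were 5 without DFMO or DFMO + cytokines replicate 2, 6 without DFMO + cytokines replicate 3 or replicate 1 of either vehicle group, 7 without DFMO replicate 1, 9 without vehicle + cytokines replicate 3 and 19 without DFMO + cytokines replicate 1. The cause was not tested.

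Same-numbered libraries did not deviate together (correlations of -0.054 to 0.073), so the numbers were not taken to pair them. A fit with the replicate block called 417 rows in DFMO, 307 in vehicle and 13 for the difference, without the calls of Rangap1, Hapln2 and Grn and the difference of Krt10. Effects of rows that were not called changed sign in some fits. The log2 fold change of Tapbp was 0.0054 with the replicate block and -0.30 to 0.22 without 1 library, and that of Odc1 was -0.65 to 1.44 without 1 library. At 403377 to 507273 counts a library, rows with few counts carry an error as large as many differences tested.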

Other observations

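Among changed rows with no annotated gene opposite, 28 of 88 (31.8%) end or start within 1000 bases of a gene on the other strand, against 326 of 929 (35.1%) among all such rows tested. The Nelfe and Gpx3 rows, outside the rule for named rows and chosen after their values were seen, lie beside known cytokine-induced genes. The Nelfe row (chr17:34850391-34856372, plus strand) lies 2 bases from the complement factor B gene Cfb, and held 738, 763 and 612 CPM in DFMO + cytokines libraries, against 18.9, 26.4 and 8.02 CPM in DFMO libraries (log2 fold change 5.31 ± 0.33, adjusted p = 3.93e-18). The Gpx3 row (chr11:54902453-54910377, plus strand) lies 408 bases from Tnip1, a gene of an NF-kB inhibitor, and held 194, 155 and 201 CPM in DFMO + cytokines libraries, against 16.5, 6.6 and 38.1 CPM in DFMO libraries (log2 fold change 3.12 ± 0.40, adjusted p = 2.85e-08). In both rows the groups did not overlap. The Ppp4r4 row lies 955 bases from Serpina10. What these rows read was not tested.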
